A study of Mus musculus with 11 samples.

Results

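The 35 genes described here encode enzymes of the tricarboxylic acid (TCA) cycle, of the entry of pyruvate into it and of branched-chain amino acid breakdown, together with kinases and a phosphatase that act on these enzymes. They were chosen by pathway, and 35 of the 35 were among the 18194 genes measured. Each gene is given by 1 Affymetrix probe set: of those that carry exactly 1 gene symbol, the brightest on average over the 11 arrays. RNA came from the left ventricle of C57BL/6 mice, and the question was what heart-restricted overexpression of Hmgn5, a nucleosome-binding protein, did to the transcripts. The transgenic mice carried an Hmgn5 cDNA with a FLAG tag, which the CAG promoter drives once cre has removed a floxed LacZ. In them cre came from an alphaMHC-cre line, whose promoter is active in heart muscle cells. The reference mice were labelled wild-type, and the labels do not say that they carried cre, so Hmgn5 and cre cannot be told apart. Adult hearts gave 3 transgenic and 3 control arrays and newborn hearts 3 transgenic and 2 control arrays, all labelled as biological replicates. No age in days or weeks was given.

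Mitochondria oxidise pyruvate through the pyruvate dehydrogenase complex, which kinases switch off and phosphatases switch on. Its product acetyl-CoA joins oxaloacetate as citrate, and the TCA cycle oxidises it stepwise to feed the respiratory chain. Leucine, isoleucine and valine are transaminated, decarboxylated by a dehydrogenase complex built like the pyruvate one, and then broken down along separate branches to acetyl-CoA, or to propionyl-CoA that enters the cycle as succinyl-CoA. The adult heart is known for a high oxidative capacity that is built up after birth.

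Several features of the whole array set bear on these genes. The Hmgn5 probe set read 8.26 to 8.71 on the log2 scale in transgenic adults against 8.44 to 8.77 in control adults, so it does not check the labels. Adult replicate 3 of both genotypes stood apart, with a mean 18S control signal of 12.18 in the transgenic and 11.89 in the control array against 7.64 to 8.58 on the other adult arrays. Newborn arrays lay between, at 10.05 to 10.53, so age cannot be told apart from whatever this signal reflects. The labels name no batch. Heart muscle markers were high on every array, with a summed level of 16.59 to 16.71 in transgenic adults and 16.68 to 16.77 in control adults, and 0 of 8 passed the test between genotypes. Control adult replicate 3 alone carried the fat transcript Ucp1 at 7.62, against 3.71 to 3.91 on the other adult arrays. The summed level of the listed fat markers was 13.04 there, against 13.11 on each of the other control adult arrays and 13.02 to 13.31 in transgenic adults. The brightest markers set this sum, so it cannot show whether dimmer fat markers were raised. Of the 5 fat markers measured 0 passed the test between adult genotypes. The log2 difference, transgenic minus control, was negative for 4 and positive for 1, from -1.93 to 0.08. The part of fat tissue in the members' values was not tested. Atrial transcripts (mean of Myl4, Myl7 and Sln) read 10.53, 6.59 and 6.52 on the transgenic adult arrays against 10.10, 10.38 and 12.24 on the control ones. Of the 5 listed atrial markers 0 passed the test between adult genotypes. The log2 difference, transgenic minus control, was -0.19 for Bmp10 and went the other way for Pam, at 0.46.

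In adult hearts the members shifted downwards, and the branched-chain amino acid enzymes held the most negative values. Of the 35 members, 13 fell in transgenic adults, 0 rose and 22 did not pass the test. Over all genes tested, 2.93% fell, 4.16% rose and 7.09% were called in either direction. A call is a limma adjusted p under 0.05 over all 18194 genes. The log2 fold change, transgenic over control, was negative for 34 of the 35 members, with a median of -0.45 against 0.01 over all genes. In 20 members every transgenic adult array lay below every control adult array, which held for 7.94% of all genes. The per-array median of the 35 members was 10.28 to 10.66 in transgenic adults and 10.68 to 11.20 in control adults, so the groups did not overlap but came close. By role, the calls were 5 of 7 enzymes on the separate branches of branched-chain amino acid breakdown, 2 of 5 at its shared first steps, 5 of 13 of the TCA cycle, and pyruvate carboxylase. The median fold changes were -0.68 on the separate branches, -0.63 at the shared first steps, -0.41 in the TCA cycle and -0.25 in the pyruvate dehydrogenase core. None of the 4 core subunits of pyruvate dehydrogenase and none of its 4 measured regulators among the members was called. In bulk tissue, fewer cells of a type and less RNA per cell cannot be told apart.

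**Figure D1:**
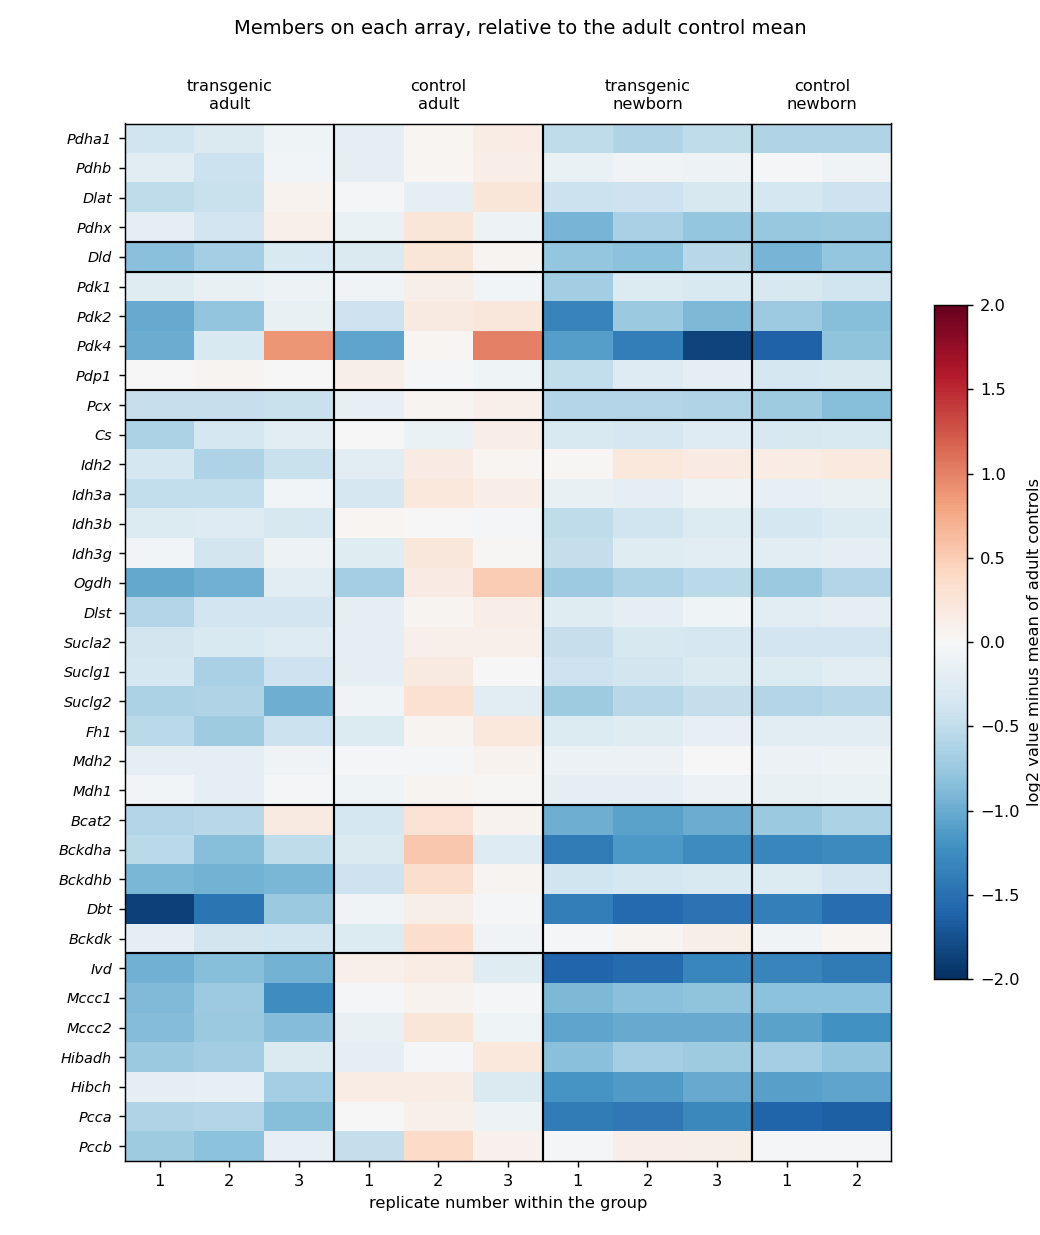
Heat map of the 35 members (rows, in order of role, with lines between the role groups) on the 11 arrays (columns, by group and replicate number); the colour gives the log2 value minus the mean of the 3 control adult arrays. The transgenic adult columns are mostly blue beside the control adult ones, deepest among the branched-chain amino acid enzymes at the bottom, while transgenic and control newborn columns look alike.

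Other measurements moved with this shift. Macrophage markers were higher in transgenic adults for 3 of 7 genes (C1qa, C1qc and Mrc1), with a summed level of 11.92 to 12.64 against 11.58 to 12.09 in control adults. Fibroblast markers were higher for 1 of 7 (Tcf21), at 14.23 to 14.48 against 13.49 to 14.21, and endothelial markers lower for 1 of 5 (Kdr), at 10.62 to 10.86 against 10.92 to 10.96. Their part in the members' fall was not tested. Compared within the same replicate number, members were lower in the transgenic array in 31, 34 and 32 of 35 cases for replicates 1, 2 and 3, with median differences of -0.27, -0.69 and -0.36. The labels do not state that same-numbered arrays are pairs, and the share of all genes lower in each was not computed. Without both high-18S arrays 14 members fell, 10 of them among the 13, and with these 2 arrays as a factor in the fit 18 fell, the 13 included. The genes that fell among all 18194 were 835 and 1173 in these fits, against 533, so the calls grew over all genes too.

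The number of calls rests on the fit. Correlations between the arrays of 1 group were 0.975 to 0.992 in transgenic and 0.983 to 0.990 in control adults, against 0.994 to 0.997 in transgenic newborns and 0.996 in the control newborns, and the fit pools their spread. With the adult arrays alone, 3 members were called (Ivd, Mccc1 and Mccc2) and 373 of all genes instead of 1290; of the other genes named below, Mmut, Pdk3 and Pdp2 were called in that fit too, and the rest lost their calls. Leaving out 1 array at a time gave 7 called members without transgenic adult replicate 1 or 2 and 20 without replicate 3, 6 without control adult replicate 2 and 7 without replicate 3, and 8 without transgenic newborn replicate 2 or without either control newborn array. Of 23 other settings, Ivd, Mccc1 and Mccc2 were called in 23, Dbt and Bckdhb in 22, Pcca and Suclg2 in 21, Pcx in 16, Fh1 in 15, Hibadh in 10, Dlst in 9, and Suclg1 and Idh2 in 8.

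The leucine branch held the members with the smallest p. Ivd encodes isovaleryl-CoA dehydrogenase, which acts on the leucine product just after the shared decarboxylation. Its log2 values were 9.75, 9.87 and 9.77 in transgenic adults and 10.82, 10.86 and 10.47 in control adults. Every transgenic array lay below every control array, with a gap of more than the spread of either group, and Ivd fell by 0.92 on the log2 scale (SE 0.13, limma adjusted p = 0.00200, 1.89-fold lower). A second probe set for Ivd fell by 0.85.

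Mccc1 and Mccc2 encode the 2 subunits of methylcrotonyl-CoA carboxylase, which acts on the product of Ivd. Mccc1 read 9.31, 9.47 and 8.95 in transgenic adults and 10.17, 10.26 and 10.15 in control adults. The control arrays were tight and the transgenic ones spread below them, and Mccc1 fell by 0.95 (SE 0.13, limma adjusted p = 0.00175, 1.94-fold lower). Mccc2 read 8.60, 8.73 and 8.60 in transgenic adults and 9.32, 9.71 and 9.38 in control adults. The groups did not overlap, and Mccc2 fell by 0.83 (SE 0.12, limma adjusted p = 0.00223, 1.78-fold lower). Each had a further called probe set, at -1.38 for Mccc1 and -1.16 for Mccc2, and the third probe set of Mccc2 gave -0.80 without passing.

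Propionyl-CoA carboxylase, which passes the carbon of valine and isoleucine towards succinyl-CoA, showed its 2 subunit genes on different sides of the threshold. Pcca, the biotin-carrying alpha subunit, read 9.91, 9.92 and 9.64 in transgenic adults and 10.49, 10.61 and 10.40 in control adults. All 3 transgenic arrays were below the lowest control, and Pcca fell by 0.68 (SE 0.11, limma adjusted p = 0.00444, 1.60-fold lower). Its other probe set, much dimmer, gave -0.04, and with the mean of both probe sets Pcca gave -0.36 and the call was lost. Pccb, the beta subunit, gave -0.56 with overlapping groups and an adjusted p of 0.165; whether the 2 subunits differed was not tested. In the valine branch Hibadh, a hydroxyisobutyrate dehydrogenase named here after its values were seen, fell by 0.58 with 11.05, 11.10 and 11.51 in transgenic adults against 11.63, 11.76 and 12.02 in control adults (limma adjusted p = 0.0365). Its call was lost without either of transgenic adult replicates 1 and 2, without control adult replicate 2 or 3, and without any 1 of the newborn arrays, with adjusted p up to 0.183 over all settings. Hibch, the hydrolase that acts just before Hibadh, gave -0.35 with an adjusted p of 0.259.

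**Figure D2:**
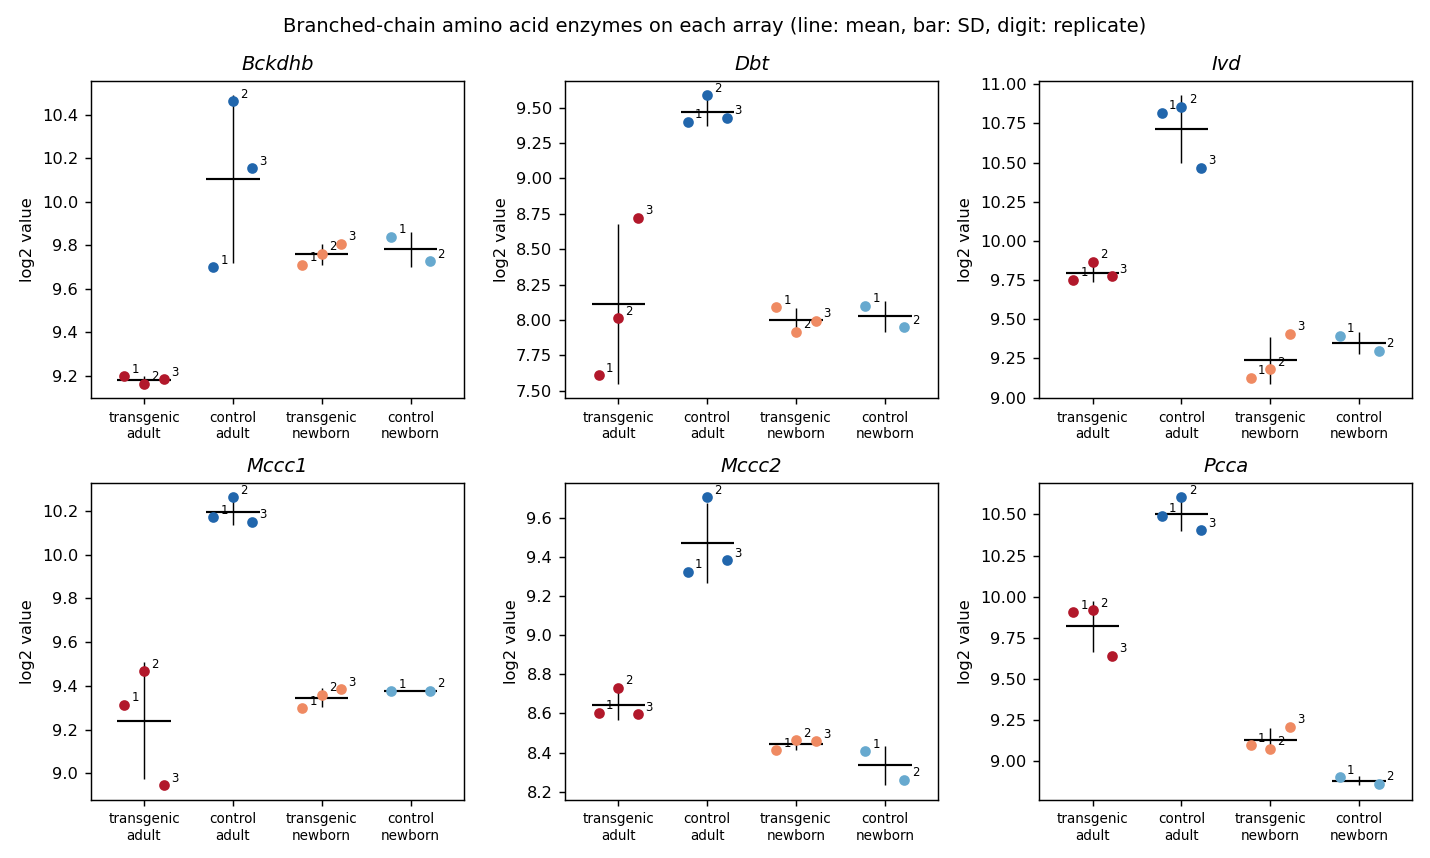
Log2 values of 6 branched-chain amino acid enzymes on each array (points, with the replicate number), with the mean (line) and SD (bar) of each group. In the 6 panels the 3 transgenic adult points lie below the 3 control adult points, and in Dbt, Mccc1 and Mccc2 they come close to the newborn level.

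Upstream of these branches, the branched-chain ketoacid dehydrogenase complex commits all 3 amino acids to breakdown. Dbt, the transacylase core of the complex, had the most negative fold change of the 35 members. It read 7.61, 8.01 and 8.72 in transgenic adults and 9.40, 9.59 and 9.43 in control adults. The transgenic arrays were widely spread, with replicate 3 the highest, but all stayed below the controls, and Dbt fell by 1.36 (SE 0.22, limma adjusted p = 0.00448, 2.56-fold lower). Bckdhb, the beta subunit of the decarboxylase, read 9.20, 9.16 and 9.18 in transgenic adults and 9.70, 10.46 and 10.15 in control adults. Here the transgenic arrays were tight and the controls spread above them, and Bckdhb fell by 0.92 (SE 0.16, limma adjusted p = 0.00660, 1.90-fold lower). With the adult arrays alone both calls were lost, at an adjusted p of 0.0557 for Dbt and 0.0732 for Bckdhb.

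The remaining members of the first steps did not pass. Bckdha, the alpha subunit of the decarboxylase, gave -0.63 with groups that did not overlap (limma adjusted p = 0.0931). Bcat2, the mitochondrial aminotransferase that opens the pathway, gave -0.32 and Bckdk, the kinase that inactivates the complex, -0.32, both with overlapping groups.

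Other genes of the pathway, from a list of 14, had mostly negative fold changes. Of the 13 measured, 7 fell, 0 rose and 6 did not pass in transgenic adults, with a median of -0.64. The fold change was negative for 12 and positive for 1. Mmut, the mutase that turns methylmalonyl-CoA into succinyl-CoA after propionyl-CoA carboxylase, read 9.90, 9.96 and 10.17 in transgenic adults and 10.83, 11.10 and 11.09 in control adults. These did not overlap, and Mmut fell by 0.99 (SE 0.12, limma adjusted p = 7.47e-04). Aldh6a1, the dehydrogenase that ends the valine branch in propionyl-CoA, fell by 0.98, Hadha by 0.90 and the thiolase Acat1 by 0.64. Ppm1k, the phosphatase that activates the branched-chain ketoacid dehydrogenase and so opposes Bckdk, fell by 0.97 (SE 0.22, limma adjusted p = 0.0218); it is named after its value was seen, and its call was lost without transgenic adult replicate 1 or 2 or control adult replicate 2 or 3. Single arrays also decided Hadha (the same 4 arrays) and Aldh6a1 (control adult replicate 2). The other called genes, likewise named after their values were seen, were Mcee (-0.75), whose call was lost without transgenic adult replicate 1, control adult replicate 1 or 2 or any 1 newborn array, and Acadsb (-0.40), whose call was lost without any 1 of the 11 arrays.

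Within the TCA cycle 5 of 13 members fell, and 13 of 13 had negative fold changes, from -0.74 to -0.09. Suclg2, the GTP-forming beta subunit of succinyl-CoA ligase, read 10.60, 10.63 and 10.26 in transgenic adults and 11.17, 11.53 and 11.01 in control adults. No array of one group reached the other, and Suclg2 fell by 0.74 (SE 0.15, limma adjusted p = 0.0144, 1.67-fold lower); it was not called without control adult replicate 2 or with the adult arrays alone, where the highest adjusted p was 0.105. Suclg1, the alpha subunit shared by both forms of the ligase, read 11.75, 11.46 and 11.68 in transgenic adults and 11.92, 12.28 and 12.09 in control adults. It fell by 0.47, with a gap between the groups that was narrower than the spread within either (SE 0.12, limma adjusted p = 0.0416). Sucla2, the ATP-forming beta subunit, gave -0.31 (limma adjusted p = 0.125), also without overlap.

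Fumarase, encoded by Fh1, turns fumarate into malate. Fh1 read 12.05, 11.89 and 12.17 in transgenic adults and 12.33, 12.65 and 12.82 in control adults. The groups were separate, and Fh1 fell by 0.56 (SE 0.13, limma adjusted p = 0.0293, 1.47-fold lower). Dlst, the succinyltransferase core of the alpha-ketoglutarate dehydrogenase complex, read 10.73, 10.92 and 10.93 in transgenic adults and 11.11, 11.37 and 11.44 in control adults. Again they were separate, and Dlst fell by 0.45 (SE 0.12, limma adjusted p = 0.0427, 1.36-fold lower). Idh2, the NADP-dependent mitochondrial isocitrate dehydrogenase and the fifth called member, named after its values were seen, read 12.31, 12.03 and 12.22 in transgenic adults and 12.45, 12.83 and 12.70 in control adults. It fell by 0.47 (SE 0.12, limma adjusted p = 0.0450). The Suclg1, Dlst, Idh2 and Fh1 calls were lost without transgenic adult replicate 1 or 2 and without control adult replicate 2 or 3; without any 1 newborn array those of Suclg1, Dlst and Idh2 were lost, and without transgenic newborn replicate 2 or either control newborn array that of Fh1. Without both high-18S arrays Suclg1, Dlst and Idh2 gave adjusted p values of 0.0525, 0.0661 and 0.0755.

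The other TCA members gave values that did not pass. Ogdh, which carries the decarboxylase of the alpha-ketoglutarate complex, read 10.54, 10.59 and 11.34 in transgenic adults and 10.87, 11.73 and 12.07 in control adults. Replicate 3 was the highest of each genotype and the groups overlapped, so a fold change of -0.73, about as large as that of Suclg2, came with an adjusted p of 0.170. Citrate synthase, Cs, which starts the cycle, gave -0.41 (limma adjusted p = 0.0788), and the subunits of the NAD-dependent isocitrate dehydrogenase gave -0.35 for Idh3a, -0.28 for Idh3b and -0.18 for Idh3g. Malate dehydrogenases gave the smallest differences, at -0.15 for mitochondrial Mdh2 and -0.09 for cytosolic Mdh1, with 95% intervals of -0.36 to 0.06 and -0.30 to 0.12.

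**Figure D3:**
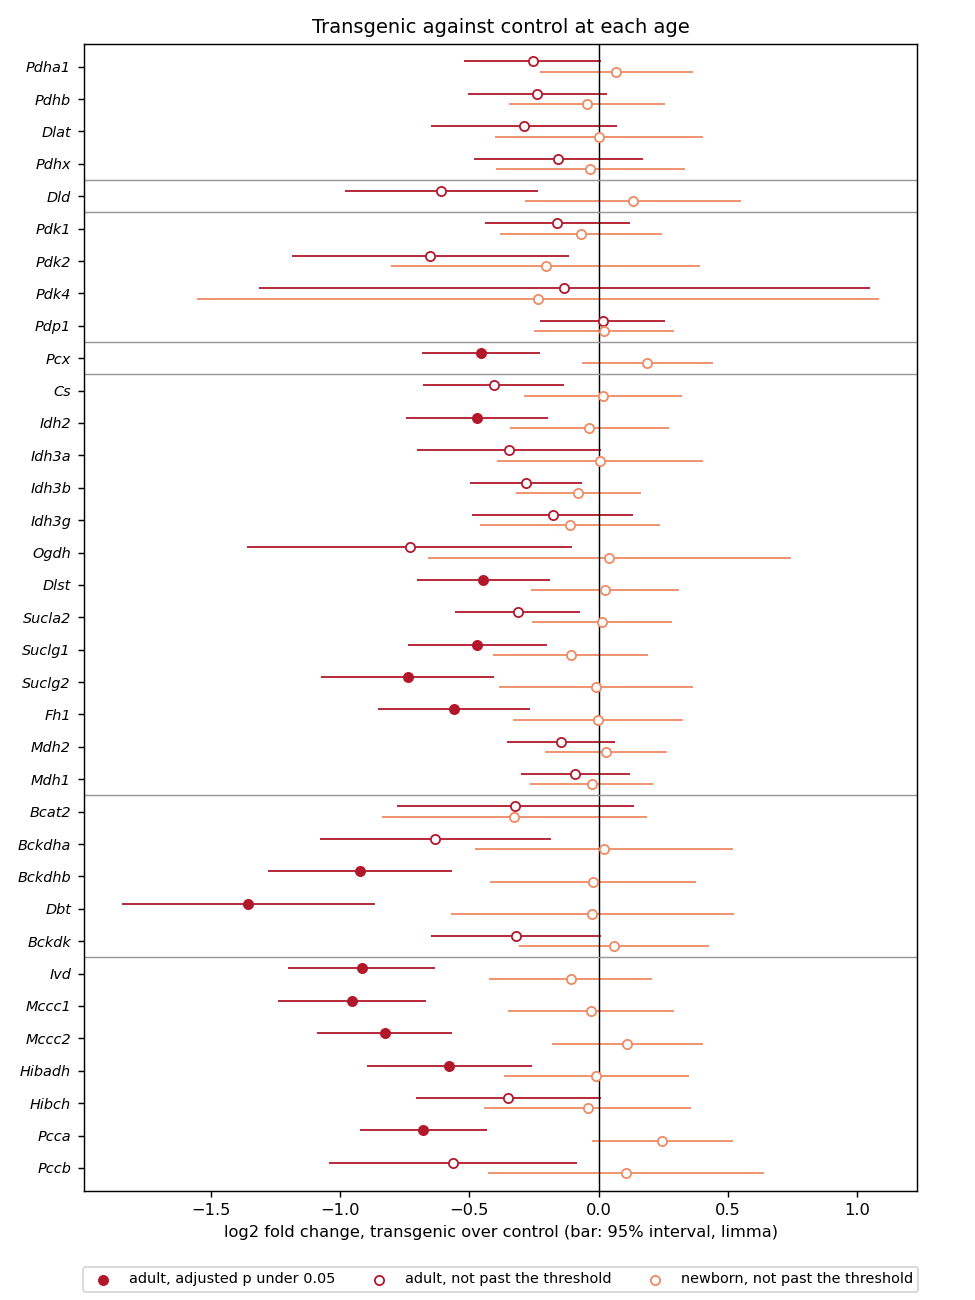
Log2 fold change, transgenic over control, of each member in adults (dark red) and newborns (orange), with limma's 95% intervals; filled points passed at an adjusted p under 0.05. Adult points lie left of 0 for 34 of 35 members and reach -1.36 at Dbt, while newborn points scatter around 0.

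The subunits that admit pyruvate to the cycle were not called. Pdha1, the alpha subunit of the pyruvate decarboxylase, read 12.48, 12.58 and 12.78 in transgenic adults and 12.68, 12.91 and 13.02 in control adults. These overlapped, with a log2 fold change of -0.26 (SE 0.12, limma adjusted p = 0.263). Pdhb, its beta subunit, gave -0.24, Dlat, the transacetylase core, -0.29, and Pdhx, the binding protein that docks the shared subunit, -0.16, with adjusted p from 0.263 to 0.654 over the 4. Dld is the dihydrolipoamide dehydrogenase used by the pyruvate, alpha-ketoglutarate and branched-chain complexes alike. Its values were 10.13, 10.28 and 10.66 in transgenic adults and 10.68, 11.21 and 11.01 in control adults. The highest transgenic and the lowest control array were almost level, and -0.61 (SE 0.17) came with a limma adjusted p of 0.0559, just short of the threshold.

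Pyruvate carboxylase, Pcx, instead makes oxaloacetate to refill the cycle. Pcx read 7.48, 7.47 and 7.49 in transgenic adults and 7.77, 8.00 and 8.04 in control adults. The groups did not overlap, and Pcx fell by 0.45 (SE 0.10, limma adjusted p = 0.0227, 1.37-fold lower). The probe set that represents Pcx is one of Affymetrix's control probe sets for pyruvate carboxylase. The gene's ordinary probe set gave -0.46, with an adjusted p of 0.0802 in the fit over all probe sets, and the other 3 control probe sets, all dimmer, gave -0.25 to 0.10. Averaged over its probe sets Pcx gave -0.21 and was not called. Its call was lost without transgenic adult replicate 1 or 2 and without control adult replicate 2 or 3.

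Among the regulators of pyruvate dehydrogenase, the kinases Pdk1, Pdk2 and Pdk4 inactivate the complex and the phosphatase Pdp1 reactivates it. Pdk2 read 7.77, 7.98 and 8.62 in transgenic adults and 8.37, 8.95 and 9.01 in control adults. Transgenic replicate 3 lay above control replicate 1, and the fold change of -0.65 (SE 0.24) did not pass (limma adjusted p = 0.152). Pdk4, the kinase known to respond to fasting and fat supply, read 10.28, 10.96 and 12.15 in transgenic adults and 10.22, 11.30 and 12.28 in control adults. In both genotypes replicate 1 was the lowest and replicate 3 the highest, with same-numbered differences of 0.06, -0.34 and -0.13. With that spread the fold change of -0.13 had a 95% interval from -1.31 to 1.05, so a change as large as that of Ivd was not detectable in Pdk4. Pdk1 gave -0.16 and Pdp1 0.01, with an interval of -0.23 to 0.26 for Pdp1.

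Among other genes of the TCA cycle and of pyruvate handling, both directions occurred. Of the 21 measured, 2 rose and 4 fell, with a median of -0.26. Pdk3, the remaining pyruvate dehydrogenase kinase, rose in transgenic adults, with 6.79, 7.03 and 7.11 against 5.66, 5.66 and 5.60 in control adults. These did not overlap and the control arrays were tight, giving a log2 fold change of 1.34 (SE 0.11, limma adjusted p = 8.90e-05). Pdp2, the second pyruvate dehydrogenase phosphatase, fell, with 6.04, 5.96 and 5.80 in transgenic adults against 6.81, 7.39 and 6.83 in control adults (-1.08, SE 0.22, limma adjusted p = 0.0149); of the 23 other settings it missed the threshold in 1, without control adult replicate 2. Of the mitochondrial malic enzymes, which turn malate into pyruvate, Me2 rose by 0.86 and Me3 fell by 0.68. The mean of the probe sets of Me2 gave 0.44 (adjusted p = 0.0596), Me3 gave -0.45 without control adult replicate 2, and the Me3 call was lost without transgenic adult replicate 1 or 2 and without any 1 newborn array. Sdha, a subunit of succinate dehydrogenase, fell by 0.54 and the lactate dehydrogenase subunit Ldhb by 0.36; both were named after their values were seen, and both calls were lost without transgenic adult replicate 1 or 2, control adult replicate 2 or 3 or any 1 newborn array, that of Ldhb also without control adult replicate 1.

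**Figure D4:**
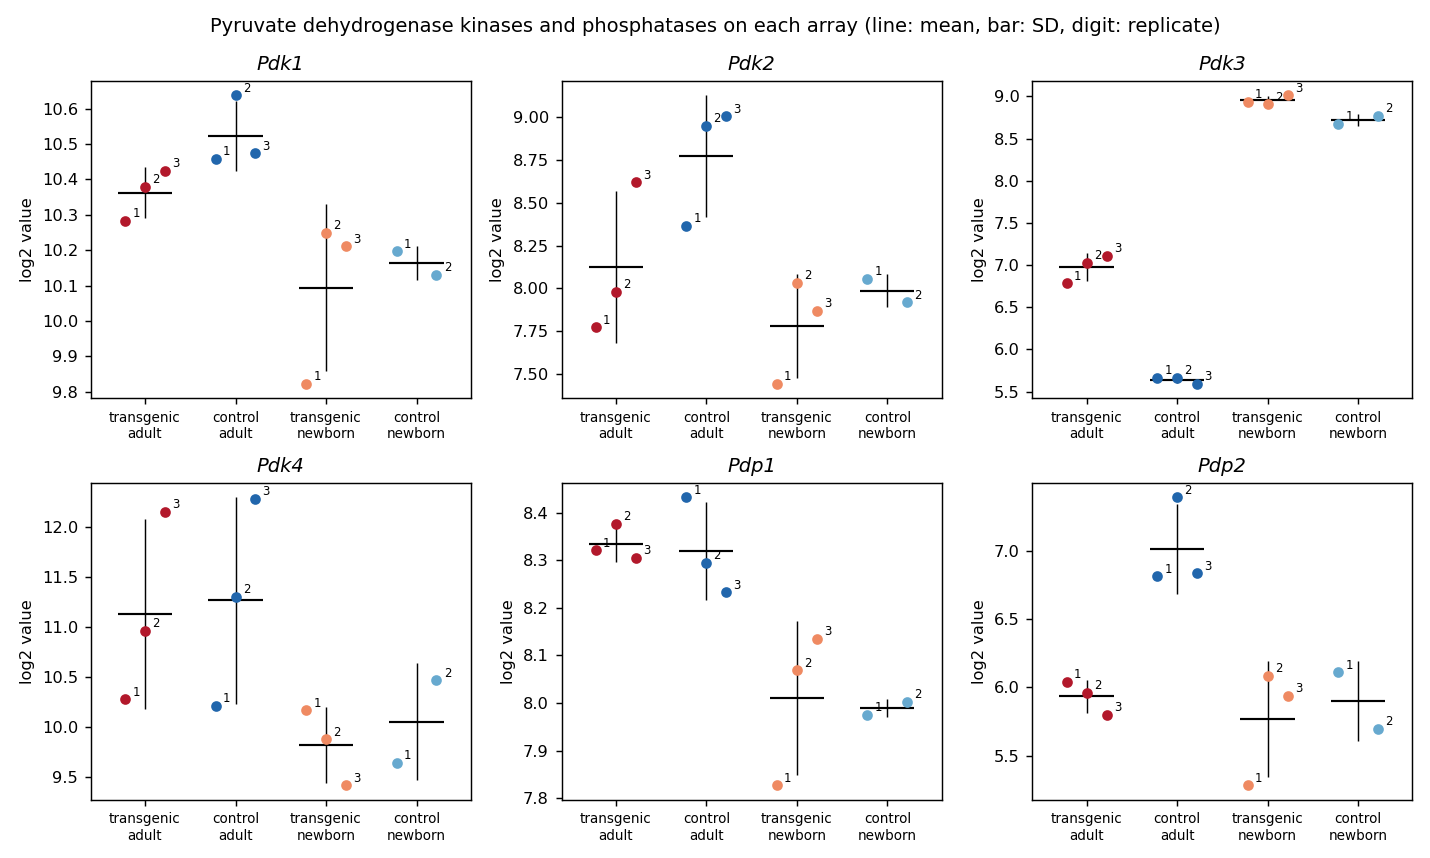
Log2 values of the pyruvate dehydrogenase kinases and phosphatases on each array (points, with the replicate number), with group mean (line) and SD (bar). Pdk3 and Pdp2, which are not among the 35 members, separate the adult genotypes in opposite directions, while the Pdk4 points of both adult genotypes span about the same range.

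Of 10 transcription factors and coactivators known for regulating these enzymes, 1 fell and 0 rose in transgenic adults. It was Ppara, the receptor that drives fatty acid oxidation genes, at 7.23, 7.09 and 7.94 in transgenic adults against 8.21, 8.91 and 8.91 in control adults (-1.26, SE 0.24, limma adjusted p = 0.00983). With the mean of its probe sets the Ppara call was lost, at an adjusted p of 0.103. Ppargc1a, a coactivator of mitochondrial genes, gave -1.58 with an adjusted p of 0.116. Among 14 other mitochondrial genes, from a list of housekeeping functions outside these pathways, 1 fell (the chaperonin Hspd1, by 0.71) and 0 rose, and the median was -0.20 against -0.45 for the members; this difference was not tested.

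Different probe sets of 1 gene can be set beside each other as a check. The 35 members had 42 further single-symbol probe sets, belonging to 25 of them. In transgenic adults 35 of the 42 gave negative fold changes, 6 fell and 0 rose in the fit over all 45101 probe sets, of which 1.38% fell. Another 3 genes, not called by the probe set used, had one that fell, at -1.09 for Mdh1, -0.79 for Dlat and -0.70 for Idh3a. For the 9 called members with another probe set, 14 of 15 were negative and 3 fell.

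In newborn hearts the Hmgn5 probe set read 8.56 to 8.84 in transgenic and 8.81 to 8.85 in control arrays, so it does not show transgene expression. Between transgenic and control newborns 0 of the 35 members were called. Over all genes the share called was 0% by limma, with 198 genes at an unadjusted p under 0.05, and 0 members reached that level. The median fold change of the members was -0.01, and the adjusted p was 1 for each. Pcca had the smallest p, with 9.10, 9.08 and 9.21 in transgenic newborns against 8.90 and 8.86 in control newborns. The transgenic arrays were the higher ones here, without overlap, at 0.25 with a 95% interval of -0.03 to 0.52. Pcx followed at 0.19 and Bcat2 at -0.33. Precision was limited by the 5 arrays: the half-width of the 95% interval had a median of 0.33 over the members and reached 1.32 for Pdk4, so differences the size of the smaller adult ones could not be detected for many members. For Dbt the newborn interval ran from -0.57 to 0.52 and for Ivd from -0.43 to 0.21.

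Whether the effect of the transgenic genotype differed between ages was tested directly, as the adult difference minus the newborn one. Of the 35 members, 2 passed, both with a more negative effect in adults, against 0.242% of all genes in that direction and 0.687% in either. Pcca gave -0.92 (SE 0.17, limma adjusted p = 0.0347) and Mccc2 -0.94 (SE 0.18, limma adjusted p = 0.0437). In newborns the transgenic arrays of Mccc2 read 8.41, 8.46 and 8.46 against 8.41 and 8.26 in controls, so the transgenic newborn arrays were slightly higher, the reverse of the adult order. Mccc1 gave -0.92 with an adjusted p of 0.0646, Ivd -0.81 with 0.103, Pcx -0.64 with 0.104 and Dbt -1.33 with 0.118, and none of these passed. The median over the members was -0.42. Among the genes outside the members, Pdk3 gave 1.11 (adjusted p = 0.0161) and Mmut -1.11 (adjusted p = 0.0196), and both passed by limma; the Pdk3 call was lost without transgenic newborn replicate 2 or either control newborn array, and the Mmut call also without transgenic newborn replicate 3 or control adult replicate 2. The count of 2 members became 0 without transgenic adult replicate 1, without control adult replicate 2 or without any 1 of the 5 newborn arrays, 4 without transgenic adult replicate 3 or control adult replicate 1, and 5 without both high-18S arrays. It was also 0 with a replicate block, over all arrays or within each age, with all probe sets as features or with a trended robust variance. It was 1 with a common array median, and 1 after averaging each gene's probe sets. The member called in the averaged fit was neither Pcca nor Mccc2, and Pcca gave -0.48 there. Over all genes the calls were 125, and 711 without the high-18S arrays.

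Adult and newborn hearts were then compared within each genotype. Tissue markers differed with age too. By the atrial average used above, newborn arrays read 12.49 to 12.87 and adult ones 6.52 to 12.24. Of the 5 atrial markers, 3 were lower with age in transgenic hearts and 0 passed in control hearts. All 7 macrophage markers were higher in adults of each genotype, with median changes of 2.05 in transgenic and 1.55 in control hearts. Their part in the members' changes with age was not tested. In transgenic hearts 7 members were higher in adults, 3 were lower and 25 did not pass, against 19.7% of all genes higher and 19.7% lower (39.4% in either direction). After cyclic loess, in place of the deposited scaling, 10 were higher and 2 lower, with 3087 higher and 2955 lower of all genes. In control hearts 16 were higher, 0 were lower and 19 did not pass, against 14.9% of all genes higher and 18.1% lower (33% in either direction). The median change of the members was 0.11 in transgenic and 0.39 in control hearts. How far these changes differ by genotype is the same quantity as the difference between ages above, in which 2 members passed.

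Of the 12 branched-chain members, 5 rose and 2 fell with age in transgenic hearts, and 9 rose and 0 fell in control hearts. Pcca averaged 9.82 ± 0.16 in transgenic adults and 9.13 ± 0.07 in transgenic newborns (SD, n = 3 each), a rise of 0.69 (limma adjusted p = 7.65e-04). In control hearts it averaged 10.50 ± 0.10 in adults (SD, n = 3) and 8.88 ± 0.03 in newborns (SD, n = 2), a rise of 1.62 (limma adjusted p = 5.69e-06, 3.07-fold). Neither genotype's adult and newborn arrays overlapped. Ivd rose with age by 0.56 in transgenic and 1.37 in control hearts, Hibch by 0.76 and 1.07, Bckdha by 0.63 and 1.29, and Bcat2 by 0.69 in each. In transgenic hearts Bcat2 gave 0.44 without adult replicate 3, still called, the Bckdha call was lost without adult replicate 1 or 3 or any 1 newborn replicate and that of Bcat2 without any 1 newborn replicate. In control hearts that of Bcat2 was lost without control adult replicate 2 or 3 or any 1 newborn array of either genotype.

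For Dbt the transgenic adult arrays averaged 8.11 ± 0.56 and the newborn ones 8.00 ± 0.09 (SD, n = 3 each), a change of 0.11 with an adjusted p of 0.694 by limma. The control adults averaged 9.47 ± 0.10 (SD, n = 3) and the control newborns 8.03 ± 0.11 (SD, n = 2), and Dbt rose by 1.45 there (limma adjusted p = 0.00132). By the probe sets used, Mccc1 and Mccc2 showed the same arrangement, with -0.10 and 0.20 in transgenic hearts, which did not pass, and rises of 0.82 and 1.14 in control hearts. In the fit over all probe sets, the other Mccc1 probe set differed. It fell by 1.275 with age in transgenic hearts (limma adjusted p = 0.00676) and gave 0.285 in control hearts without passing. The other Mccc2 probe sets gave -0.19 and -0.08 in transgenic and 1.18 and 0.845 in control hearts, of which only 1.18 passed. Hibadh gave 0.17 in transgenic hearts and rose by 0.73 in control hearts, a call lost without control newborn replicate 2. Bckdhb fell with age in transgenic hearts, by 0.58, a call lost without transgenic newborn replicate 2 or 3, and gave 0.32 in control hearts without passing. Pccb fell by 0.64 in transgenic hearts, a call lost without transgenic adult replicate 1 or 2 or any 1 newborn array, and gave 0.03 in control hearts.

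**Figure D5:**
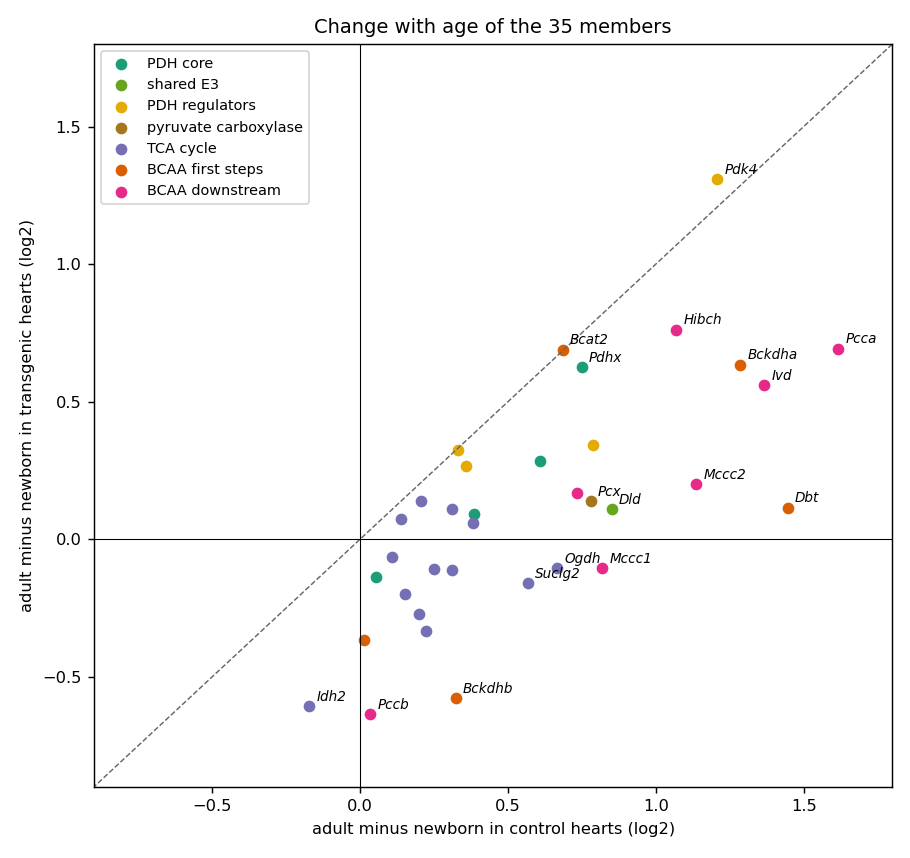
Change with age, adult minus newborn on the log2 scale, in transgenic hearts (vertical axis) against control hearts (horizontal axis), 1 point per member coloured by role; the dashed line marks equal change. Most points lie below the line, the branched-chain enzymes Dbt, Mccc1 and Mccc2 near 0 on the vertical axis and Pcca, Ivd and Bckdha above 0 on both axes.

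Of the 13 TCA cycle members, 0 rose and 1 fell with age in transgenic hearts, and 2 rose and 0 fell in control hearts. Idh2 fell by 0.61 in transgenic hearts (limma adjusted p = 0.00347) and gave -0.17 in control hearts. In control hearts Suclg2 rose by 0.57 and Sucla2 by 0.38, and in transgenic hearts they gave -0.16 and 0.06. Averaged over its probe sets, the other 2 of them dim, Sucla2 gave 0.02 (adjusted p = 0.844). The Sucla2 rise was also lost without any 1 control array other than adult replicate 1 and without transgenic newborn replicate 2 or 3, and that of Suclg2 without control adult replicate 2 or either control newborn array. By the probe sets used, none of the remaining TCA members passed in either genotype. For several members the choice of probe set matters, in the fit over all probe sets. In control hearts the Idh3b probe set used gave 0.31, while others fell by 1.31 and rose by 0.74. Idh3a gave 0.15, while its other probe sets rose by 1.01, 1.02 and 1.19. Another Ogdh probe set rose by 1.34, and another Idh2 one fell by 0.76. In transgenic hearts other probe sets fell by 1.545 for Mdh1 and by 1.08 and 0.60 for Dlst.

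By the probe sets used, the pyruvate genes that rose with age in control hearts were Pdha1 (0.61), Pdhx (0.75), Dld (0.85), Pcx (0.78) and Pdk2 (0.79). In transgenic hearts the same genes gave 0.28, 0.62, 0.11, 0.14 and 0.34, of which only Pdhx passed. Dlat gave 0.39 in control hearts without passing. In the fit over all probe sets, another Dlat probe set rose by 1.30 in control and 0.56 in transgenic hearts. The remaining Dlat one gave 0.39 and 0.11 without passing. Another Pdp1 probe set rose by 1.49 in control hearts and gave 0.80 in transgenic ones without passing. Averaged over their probe sets, Dld gave 0.55 and Pcx 0.47 in control hearts, both still called. Dld lost its call without control newborn replicate 1, and Pdk2 without transgenic adult replicate 2, control adult replicate 2 or 3, transgenic newborn replicate 2 or 3 or either control newborn array. Pdp1 rose by 0.32 in transgenic hearts and gave 0.33 in control hearts with an adjusted p of 0.0592; its call was lost without transgenic adult replicate 1 or 2, transgenic newborn replicate 1 or 2 or either control newborn array, and it gave 0.56 averaged over its probe sets and 0.50 after cyclic loess. Pdk4 gave 1.31 in transgenic and 1.21 in control hearts, the adult values being too spread for either to pass.

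Since the members moved together, the promoters in RefSeq's table (GRCm38.p6, 250 bases before to 50 after the start) were searched for motifs of factors known for mitochondrial genes. A window was found for 32 of the 35 members. The estrogen-related receptor motif TNAAGGTCA, searched on both strands, was in 0 of the 32, against 1.43% of all 27025 genes with a window. The core of the NRF1 motif, GCGCANGCG on both strands, was in 5 of the 32 (15.6%), against 7.03% of all genes. These 5 were Dld, Hibadh, Ogdh, Pccb and Sucla2, of which Hibadh was called in adults. The matches are shown as the letters that these members share in their windows, out of the 2 motifs searched. They are written along the gene's strand, with the match in capitals, and those of Hibadh and Sucla2 carry the motif on the opposite strand. The positions are chr9:101034903-101034927 and chr9:101034937-101034961 (minus strand) for Pccb, chr11:6292535-6292559 (plus) for Ogdh, chr12:31351422-31351440 (minus) for Dld, chr6:52640349-52640373 (minus) for Hibadh and chr14:73552762-73552786 (plus) for Sucla2.
Pccb, first match: cgctctctGCGCATGCGtcctgagg
Pccb, second match: gcgacgacGCGCAGGCGcagactcg
Ogdh: ggtgttgtGCGCATGCGtaactcaa
Dld: tatatgttGCGCAGGCGca
Hibadh: aaggagagCGCGTGCGCgagctgtc
Sucla2: cgtctctgCGCCTGCGCggtgccca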

How the data were processed

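Total RNA of the left ventricle was measured on Affymetrix mouse arrays with 45101 probe sets. The values are the authors' deposited log2 expression values; the submitters' processing notes list RMA, affy and limma, without versions or roles. With array medians of 5.12 to 5.18, a shift common to most transcripts would be hidden. Gene names came from the platform annotation: 34958 probe sets had 1 symbol, 932 several and 9211 none listed here. The 35 members matched RefSeq by gene ID with unchanged symbols.

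A group-means model over the 11 arrays and 18194 genes was fitted in R 4.3.3 by limma 3.58.1 (functions lmFit and eBayes; 7 residual and 3.85 prior degrees of freedom). P values are 2-sided and adjusted over all 18194 genes by Benjamini-Hochberg within a comparison. They set a difference against the spread between arrays within groups, pooled over all groups. Fold changes are differences of mean log2 values, with limma's moderated SE and 95% intervals. The procedure was tested on simulated data with independent noise and the same spread in each group. Shared array effects and the wider adult spread were not simulated. The number of arrays limits the precision.

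Arrays were grouped by their titles. The members and gene lists were chosen with earlier results of these data known. Values per array are given for up to 4 called members per role with the smallest p (or the 1 with the smallest p), the 3 with the smallest p in newborns, up to 3 per role for each age comparison, and up to 4 genes per other list. Other names were chosen after their values were seen. Of 63 such other genes 58 were measured, and the rest were not analysed here. Alternatives were a replicate block, a filter on dim genes, averaging each gene's probe sets, all probe sets as features, array weights, a trended robust variance, fits of only the compared groups, cyclic loess, a common median, the 18S pair as a factor or left out, and each array left out. A block within each age was chosen after seeing the data.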

Additional observations from a re-analysis of the deposited data

Results flagged for a closer look

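For 2 members the transgenic effect differed between ages by the test of the difference itself. Mccc2, a subunit of methylcrotonyl-CoA carboxylase, differed by -0.94 on the log2 scale (adult effect -0.83, newborn effect 0.11, limma adjusted p = 0.0437). Pcca, the alpha subunit of propionyl-CoA carboxylase, differed by -0.92 (adult effect -0.68, newborn effect 0.25, limma adjusted p = 0.0347). Of 22 other settings, the difference was called in 7 for Mccc2 and in 10 for Pcca, and its size ran from -1.08 to -0.82 for Mccc2 and from -0.97 to -0.48 for Pcca.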

How the results depend on the processing

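Between transgenic and control adults, of 368 recomputed values 278 kept their side of the threshold, 78 lost the call, 12 gained it and 0 changed sign; 13 members were called, 3 with only the compared groups, and 6 to 20 with 1 array left out. For the difference between ages 2 members were called: 0 with all probe sets as features or a trended robust variance, 1 after averaging each gene's probe sets or with a common array median, 12 with array weights, 7 with the 18S pair as a factor, 5 without that pair (841, 494 and 711 of all genes, against 125), and 0 to 4 with 1 array left out. The 1 member called after averaging each gene's probe sets was neither Mccc2 nor Pcca. Only the compared groups gives no value for the difference between ages. Adult against newborn, the 10 calls in transgenic hearts became 5 to 13 with 1 array left out, and the 16 in control hearts 11 to 19. Between newborns 0 members were called in each setting. With only the adult arrays 373 of all genes were called instead of 1290, and 2625 with the 18S pair as a factor or 2183 without it.

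With the replicate block, 13 members were called in adults (11 of them the same), 0 for the difference between ages, 10 with age in transgenic and 14 in control hearts. The check bears out the numbers as pairs only in part: deviations of same-numbered adult arrays correlated at 0.31, -0.06 and 0.45. Transgenic adult replicates 1 and 3 correlated best with the control of the same number, and replicate 2 with control replicate 1. Same-numbered newborn arrays gave 0.18 and -0.15. These cannot decide the pairing, because the deviations of 2 control arrays mirror each other. A block within each age, chosen after seeing the data, gave 12 in adults and 0 for the difference. Limits: 2 or 3 arrays per group, a spread pooled over ages that differ in spread, and cre in transgenic mice, not stated for controls. Age also went alongside array processing and differences in atrial and macrophage markers.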
